A study of Mus musculus with 4 samples.

Results

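The genes described are 10 angiogenic ligands and receptors, taken from the deposited table by symbol. They are the ligands *Vegfa*, *Vegfb*, *Vegfc*, *Angpt1* and *Angpt2* and the receptors *Kdr*, *Flt1*, *Flt4*, *Tek* and *Nrp1*, and all 10 were found among the 19030 genes listed. They were measured by RNA sequencing of ingWAT (inguinal white adipose tissue, a depot under the skin) from C57BL/6 mice labelled 3 months old and housed at 4°C. The Ctrl group (labelled Control) was *Oct3* fl/fl, and the cKO group (labelled Oct3 deficient) carried an Adiponectin-Cre transgene on the same floxed background. Adiponectin-Cre is active in adipocytes, so that the deletion is not aimed at endothelial or stromal cells of the depot. Each group had 2 libraries, the number of mice in each library is not given in the sources used here, and p-values therefore measure only the spread between these libraries. The methods describe male mice that were cooled stepwise.

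Vascular endothelial growth factors (VEGFs) and angiopoietins are secreted proteins that control how blood and lymph vessels grow, leak and mature. VEGF-A drives sprouting of blood vessels through VEGFR2, the product of *Kdr*, while VEGFR1, the product of *Flt1*, binds VEGF-A tightly and can act as a decoy. VEGF-B binds VEGFR1, VEGF-C acts on lymphatic vessels through VEGFR3, the product of *Flt4*, and neuropilin 1, the product of *Nrp1*, is a co-receptor. Angiopoietin 1 activates the receptor Tie2, the product of *Tek*, and keeps vessels quiescent, and angiopoietin 2 mostly opposes it. In thermogenic fat the vasculature is dense and carries fuel, oxygen and heat.

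Expression was given as FPKM, the fragments of a gene scaled by transcript length and library depth, so levels can be set side by side between genes. Differences between the genotypes were tested with limma after log2(FPKM + 1) transformation. The 12658 genes whose mean reached 1 FPKM were tested, with Benjamini-Hochberg adjustment over all of them, and a gene was called at an adjusted p under 0.05. All 10 members passed the filter on low values. A positive log2 fold change means a higher value in cKO, and because 1 FPKM is added before the logarithm the changes of low genes are understated. Means carry the SD of 2 libraries.

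The targeted gene, *Slc22a3* (Oct3), fell in cKO from 16.95 and 17.68 to 9.07 and 9.5 FPKM (log2 fold change -0.83, limma adjusted p = 0.000439). No read counts were used, and the depth estimated from the steps between low FPKM values was 17400000 to 18150000 reads per library. Other cell types differed between the genotypes. The 12 skeletal muscle genes of a marker list summed to 2297 and 1530 FPKM in Ctrl and to 10.1 and 7.82 in cKO, and all 10 that could be tested were lower. All 6 Schwann cell genes were also lower, while 7 of 8 B cell, 7 of 8 T cell and all 8 beige and brown adipocyte genes were higher. Of 10 macrophage genes 1 was called higher and 4 lower. Of 12 adipocyte genes 7 were called lower and 0 higher (0 with an unadjusted limma p under 0.05), and they summed to 41073 and 39101 FPKM in Ctrl and to 29505 and 30185 in cKO. Their log2 fold changes had a median of -0.34. The 5 not called, named after their values were seen, were *Plin1*, *Cidec*, *Fabp4*, *Lipe* and *Pnpla2*. Their log2 fold changes were -0.07, 0.07, -0.25, -0.02 and 0.05, so the list did not fall as a whole. The largest falls were those of *Lep* and *Car3*, at -1.40 and -0.83. *Fabp4*, with 15874 and 16398 FPKM in Ctrl, weighs most in the sum. Among keratinocyte and epithelial genes 6 of 7 had a mean under 1 FPKM.

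The VEGF ligand promoters are shown first, among them those of *Vegfa* and *Vegfb*, the most abundant of the 10 genes. Whether these bases bear on the calls was not tested, and bases further upstream were not searched. Each line is the 250 bases before a RefSeq gene start in GRCm38.p6, from 5′ to 3′ on the gene's strand. Capitals mark any of 4 short motifs on either strand, ACGTG (the core of the hypoxia response element), TGACG (the core of the cAMP response element), AAGGTCA (bound by estrogen-related receptors) and GGAAG (the ETS core). The windows are chr17:46032378-46032627 for *Vegfa*, chr19:6987652-6987901 for *Vegfb* (both on the minus strand) and chr8:54077282-54077531 for *Vegfc* (plus strand), and no GENCODE M21 exon overlaps them.
Vegfa: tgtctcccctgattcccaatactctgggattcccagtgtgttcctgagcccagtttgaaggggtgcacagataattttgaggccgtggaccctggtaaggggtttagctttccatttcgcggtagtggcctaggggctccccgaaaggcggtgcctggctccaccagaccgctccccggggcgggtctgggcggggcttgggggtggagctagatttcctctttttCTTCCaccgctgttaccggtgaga
Vegfb: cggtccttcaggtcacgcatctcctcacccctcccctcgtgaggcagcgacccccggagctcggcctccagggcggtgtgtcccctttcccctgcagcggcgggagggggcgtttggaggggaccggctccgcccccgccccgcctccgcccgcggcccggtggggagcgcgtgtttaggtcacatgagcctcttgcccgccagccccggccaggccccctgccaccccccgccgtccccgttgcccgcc
Vegfc: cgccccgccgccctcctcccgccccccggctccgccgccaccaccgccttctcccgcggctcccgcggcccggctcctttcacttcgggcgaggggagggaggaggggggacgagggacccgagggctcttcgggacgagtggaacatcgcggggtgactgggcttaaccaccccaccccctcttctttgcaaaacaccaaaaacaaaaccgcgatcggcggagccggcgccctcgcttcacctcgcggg

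Only an ETS core stands in these *Vegfa* bases, at position -24 from the start, and none of the 4 motifs stands in those of *Vegfb* or *Vegfc*. GC content was 59.2%, 76.4% and 71.6%, respectively. RefSeq promoter windows of 300 bases, of which 50 follow the start, were given for 8 of the 10 members. *Vegfa* has a second window further inside the gene (chr17:46025114-46025413), where GENCODE exons overlap it, and this window holds overlapping hypoxia response and cAMP response letters at positions -211 and -209. Among the receptors, *Flt1* holds 1 stretch, TGACGTCA, in which the cAMP response core is read on each strand with overlap. *Nrp1* holds the estrogen-related receptor element at -246, and *Kdr*, *Flt1*, *Flt4* and *Nrp1* each hold at least 1 ETS core. The window of *Tek* holds none of the 4. Of all 32851 promoter windows, 19.6% hold ACGTG, 20.8% TGACG, 4.72% AAGGTCA and 71.4% GGAAG, so the ETS core is common everywhere. Letters in a window are a description and not a binding site.

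Of the 10 members, 4 were called lower in cKO, namely *Angpt1*, *Tek*, *Vegfb* and *Nrp1*, and 6 were not called. Over all genes tested 25.8% were called, 13.8% lower and 12% higher. No member was called higher, and with limma none of the higher members had an unadjusted p under 0.05. The median log2 fold change of the members was -0.12, against -0.006 for all genes tested. The largest changes were those of the angiopoietin 1 and Tie2 pair, whereas *Vegfa*, *Kdr* and *Flt1* had log2 fold changes of 0.06, -0.10 and -0.14. For 6 members each cKO library was below both Ctrl libraries and for 1, *Vegfa*, each was above them, while 34.6% and 31.9% of all genes tested did so, 66.5% in either direction. The remaining 3 overlapped between genotypes. In bulk tissue, fewer cells of a type and less RNA per cell cannot be told apart.

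**Figure D1:**
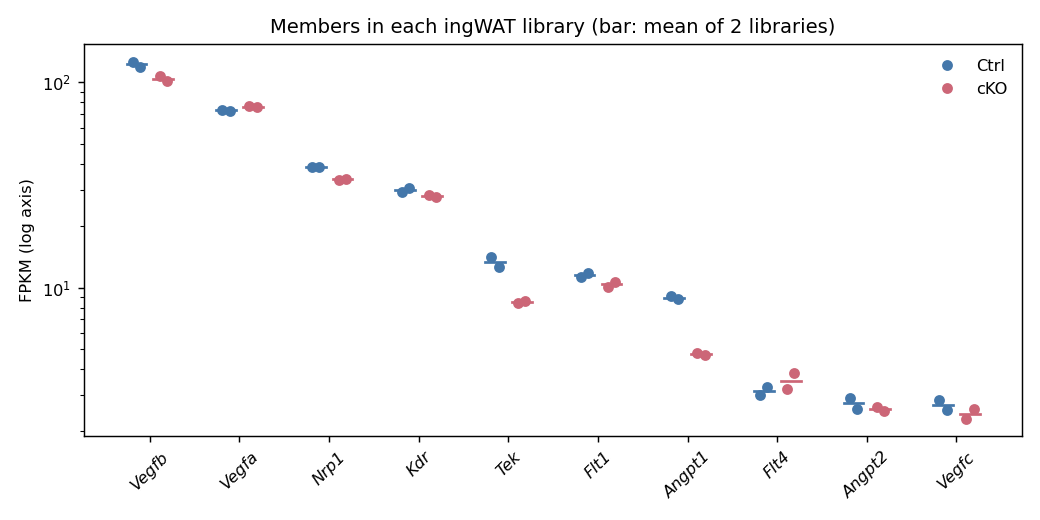
FPKM (log axis) of the 10 members in each library, Ctrl in blue and cKO in red, with a short bar at the mean of 2 libraries and the genes in order of their Ctrl mean. *Tek* and *Angpt1* show the widest gaps between the genotypes, and *Tek* drops from above *Flt1* to below it.

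The levels spanned 45.5-fold in Ctrl, from *Vegfb* at the top to *Vegfc* at the bottom, and 43-fold in cKO. In Ctrl the order was *Vegfb*, *Vegfa*, *Nrp1*, *Kdr*, *Tek*, *Flt1*, *Angpt1*, *Flt4*, *Angpt2* and *Vegfc*. Each gene's libraries lay above those of the next gene in this order, except that *Angpt2* and *Vegfc* overlapped. In cKO the same order was found with a single exchange, in which *Flt1* stood above *Tek*. Hence the tissue held more mRNA per length for VEGF-A and VEGF-B than for any of their receptors, and little for VEGF-C and angiopoietin 2.

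*Angpt1* (Entrez gene 11600, chr15:42424723-42676977, minus strand), the activating ligand of Tie2, had 9.06 and 8.79 FPKM in Ctrl and 4.83 and 4.71 in cKO. The cKO libraries were close to each other and well below both Ctrl libraries. The mean fell by 46.6%, from 8.93 ± 0.191 to 4.77 ± 0.0849 FPKM (SD, n = 2 each), with a log2 fold change of -0.78 (95% interval -0.96 to -0.61, limma adjusted p = 0.000769, lower in both cKO libraries). It stayed called under all 11 alternative settings, with log2 fold changes from -0.89 to -0.76 and adjusted p from 0.000105 to 0.0308 by limma. An exon of the GENCODE gene Gm17473 overlaps *Angpt1* on the opposite strand, and the library protocol names no step that marks the strand, so reads of the pair cannot be told apart.

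*Tek* (Entrez gene 21687, chr4:94739289-94874976, plus strand), which encodes Tie2, had 14.15 and 12.67 FPKM in Ctrl and 8.44 and 8.58 in cKO. Again the genotypes did not overlap, and the spread was wider in Ctrl. The mean fell by 36.5%, from 13.4 ± 1.05 to 8.51 ± 0.099 FPKM (SD, n = 2 each), with a log2 fold change of -0.60 (95% interval -0.78 to -0.42, limma adjusted p = 0.00201, lower in both cKO libraries). *Tek* was likewise called under all 11 alternatives, with log2 fold changes from -0.67 to -0.52. The smallest of these falls came when Ctrl replicate 1 was left out.

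*Angpt2* (Entrez gene 11601, chr8:18690263-18741562, minus strand), the context-dependent antagonist of Tie2, had 2.89 and 2.57 FPKM in Ctrl and 2.61 and 2.5 in cKO. The genotypes overlapped. Its log2 fold change was -0.07 with a 95% interval from -0.30 to 0.17 (limma adjusted p = 0.657), which still allows a change of modest size, and at the estimated depth these values stand for 154 to 184 reads. Within a library, the ratio of *Angpt2* to *Angpt1* was 0.319 and 0.292 in Ctrl and 0.54 and 0.531 in cKO. The ratio was thus higher in both cKO libraries (two-sided exact permutation p = 0.333, the smallest that 2 libraries against 2 allow). The ratio of *Angpt1* to *Tek* was 0.64 and 0.694 in Ctrl and 0.572 and 0.549 in cKO.

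*Vegfb* (Entrez gene 22340, chr19:6982473-6987651, minus strand), the ligand of VEGFR1, was the most abundant member, with 125.99 and 118.86 FPKM in Ctrl and 107.36 and 101.33 in cKO. The genotypes did not overlap. The mean fell by 14.8%, from 122 ± 5.04 to 104 ± 4.26 FPKM (SD, n = 2 each), with a log2 fold change of -0.23 (95% interval -0.37 to -0.08, limma adjusted p = 0.0338, lower in both cKO libraries). The call was lost when any 1 of the 4 libraries was left out, with limma adjusted p from 0.0582 without cKO replicate 1 to 0.212 without Ctrl replicate 1. Skeletal muscle genes and 7 of 12 adipocyte genes were called lower in cKO, as given above. Their part in the fall of *Vegfb* was not tested.

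*Vegfa* (Entrez gene 22339, chr17:46016993-46032369, minus strand), the main vessel growth factor, had 73.78 and 72.32 FPKM in Ctrl and 76.64 and 75.62 in cKO. Both cKO libraries were slightly above both Ctrl libraries. The mean was 73 ± 1.03 FPKM in Ctrl and 76.1 ± 0.721 FPKM in cKO (SD, n = 2 each), and the log2 fold change of 0.06 was not called (95% interval -0.07 to 0.18, limma adjusted p = 0.461). The table lists 10 transcript IDs for *Vegfa* and sums them, so its splice forms were not separated. Within a library, *Vegfa* was 0.586 and 0.608 times the level of *Vegfb* in Ctrl and 0.714 and 0.746 times in cKO. By the smallest distance between centred log2(FPKM + 1) values over the 4 libraries, *Tars*, *Mien1* and *Rhbdd1* had the patterns most like *Vegfa* (distances 0.0021, 0.0071 and 0.0083), and none of the 3 was called.

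*Vegfc* (Entrez gene 22341, chr8:54077606-54187096, plus strand), the lymphatic growth factor, had 2.84 and 2.54 FPKM in Ctrl and 2.3 and 2.55 in cKO, which overlap. Its log2 fold change of -0.11 was not called (95% interval -0.35 to 0.14, limma adjusted p = 0.485). These values stand for an estimated 96 to 124 reads, so that counting alone gives an error of up to 10.2%, and a change of that order was not detectable at this depth.

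*Kdr* (Entrez gene 16542, chr5:75932827-75978458, minus strand), the gene for VEGFR2, had 29.2 and 30.75 FPKM in Ctrl and 28.15 and 27.75 in cKO. The cKO libraries were below the Ctrl libraries by little more than the spread in Ctrl. The log2 fold change was -0.10 (95% interval -0.24 to 0.04, limma adjusted p = 0.27), and the interval bounds a fall in *Kdr* to less than the measured fall in *Tek*. The genes with the pattern most like *Kdr* over the 4 libraries were *Nprl3*, *Arid2* and *Mbnl2* (distances 0.013, 0.013 and 0.014), again with none called.

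*Flt1* (Entrez gene 14254, chr5:147561604-147726011, minus strand), the gene for VEGFR1, had 11.26 and 11.83 FPKM in Ctrl and 10.12 and 10.69 in cKO. The groups did not overlap, yet the log2 fold change of -0.14 was not called (95% interval -0.30 to 0.03, limma adjusted p = 0.191). A single transcript ID is listed, so the soluble and membrane forms of the receptor were not separated. *Flt1* stood at 0.386 and 0.385 times the level of *Kdr* in Ctrl and at 0.36 and 0.385 times in cKO, which overlap.

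*Flt4* (Entrez gene 14257, chr11:49609263-49652739, plus strand), the gene for the lymphatic receptor VEGFR3, had 2.99 and 3.28 FPKM in Ctrl and 3.19 and 3.83 in cKO. The genotypes overlapped, and the log2 fold change of 0.12 was not called (95% interval -0.13 to 0.37, limma adjusted p = 0.44). Of 8 genes on a lymphatic endothelial list, 6 could be tested, with 2 called lower and 0 higher (2 of the higher had an unadjusted limma p under 0.05). The 2 higher ones, named after their values were seen, were *Ccl21a* and *Mmrn1*, each higher in both cKO libraries. Their log2 fold changes were 0.59 and 0.26 (limma adjusted p = 0.0596 and 0.105), so the list moved in both directions. Those called were *Lyve1*, a hyaluronan receptor, and *Fgl2*, and both calls were lost without Ctrl replicate 1 (limma adjusted p = 0.189 and 0.0764), that of *Lyve1* also without Ctrl replicate 2 or cKO replicate 1 (0.0633 and 0.114). Both genes are also known in resident macrophages, of which *Cd163* and *Mrc1*, scavenger and mannose receptors, were called lower with log2 fold changes of -1.10 and -0.72. *Cd68*, a macrophage lysosomal gene, was called higher with 0.73, and the part of macrophages was not tested. The defining lymphatic factor *Prox1* had 0.21 and 0.34 FPKM in Ctrl and 0.52 and 0.66 in cKO and was under the filter.

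*Nrp1* (Entrez gene 18186, chr8:128358604-128503363, plus strand), the VEGF and semaphorin co-receptor, had 38.8 and 38.73 FPKM in Ctrl and 33.62 and 33.98 in cKO. The libraries of each genotype were nearly equal and the genotypes did not overlap. The mean fell by 12.8%, from 38.8 ± 0.0495 to 33.8 ± 0.255 FPKM (SD, n = 2 each), with a log2 fold change of -0.19 (95% interval -0.32 to -0.06, limma adjusted p = 0.0394, lower in both cKO libraries). This call, too, was lost when any 1 of the 4 libraries was left out, with limma adjusted p from 0.0956 without cKO replicate 2 to 0.172 without Ctrl replicate 1.

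**Figure D2:**
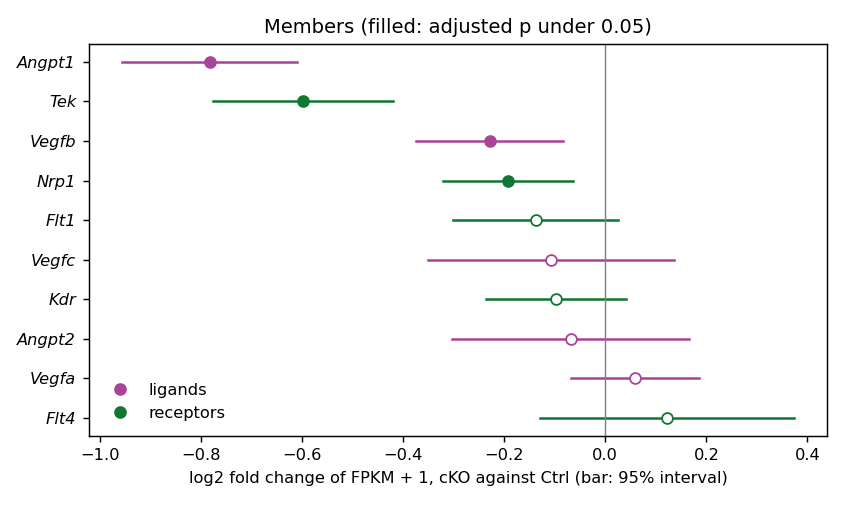
Log2 fold change of FPKM + 1, cKO against Ctrl, of each member with its 95% interval from limma, ligands in purple and receptors in green, and filled points for an adjusted p under 0.05. *Angpt1* and *Tek* stand apart at -0.78 and -0.60, and the intervals of *Vegfa*, *Kdr*, *Flt1*, *Vegfc*, *Angpt2* and *Flt4* include 0.

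The receptors are genes of endothelial cells in large part, so they were set beside 20 blood endothelial markers. Of these markers 8 were called lower and 0 higher, around a median log2 fold change of -0.21, and with limma 10 of the lower and 0 of the higher ones had an unadjusted p under 0.05. Their summed level was 831 and 787 FPKM in Ctrl and 682 and 729 FPKM in cKO, with both cKO libraries lower. *Erg*, an endothelial transcription factor, and *Gpihbp1*, which anchors lipoprotein lipase in capillaries, had the largest falls, with log2 fold changes of -0.53 and -0.39. *Pecam1* and *Cdh5*, both defining markers, had log2 fold changes of -0.06 (not called) and -0.24 (called lower). No marker of the 20 was called when Ctrl replicate 1 was left out, and 3 were called without Ctrl replicate 2 and 3 without cKO replicate 1, and *Erg* also lost its call without Ctrl replicate 2 (limma adjusted p = 0.119).

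**Figure D3:**
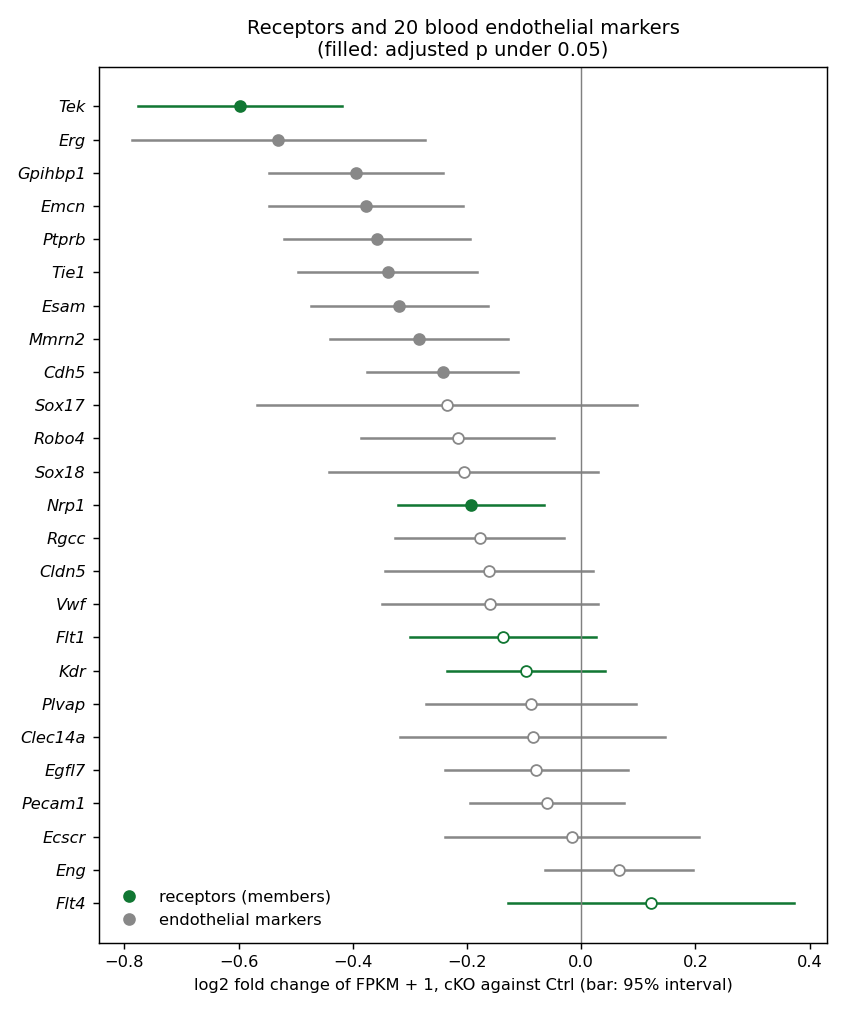
Log2 fold change of FPKM + 1, cKO against Ctrl, with 95% intervals from limma, for the 5 receptors (green) and 20 blood endothelial markers (grey), with filled points for an adjusted p under 0.05. *Tek* is at the top with -0.60, *Nrp1*, *Flt1* and *Kdr* lie among the markers, and *Flt4* is at the bottom with 0.12.

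With all 4 libraries, the log2 fold change of *Tek* was lower than that of each of the 20 markers. *Erg* was lower than *Tek* when Ctrl replicate 1 was left out (-0.58 against -0.52) or cKO replicate 2 (-0.68 against -0.61), and the endothelial genes *Nos3* and *Aplnr*, which are on other lists and not among the 20, had log2 fold changes of -0.65 and -0.83. With all libraries, 11 markers were lower than *Nrp1*, 14 lower than *Flt1* and 14 lower than *Kdr*. Relative to the summed markers of its own library, *Tek* stood at 0.017 and 0.0161 in Ctrl and at 0.0124 and 0.0118 in cKO, so both cKO libraries were lower (two-sided exact permutation p = 0.333, the smallest possible with 2 against 2). *Kdr* stood at 0.0351 and 0.0391 in Ctrl and at 0.0413 and 0.0381 in cKO, which overlap, and *Nrp1* and *Flt1* overlapped in the same way. *Tek* was thus lower relative to the marker sum in both cKO libraries, and for *Kdr*, *Flt1* and *Nrp1* no difference from the marker sum was seen beyond the spread between libraries. The sum adds FPKM, so abundant markers weigh most in it. Its most abundant marker, *Rgcc*, had 189.65 and 176.86 FPKM in Ctrl and 158.49 and 165.26 in cKO. *Flt4* stood at 0.0036 and 0.00417 in Ctrl and at 0.00467 and 0.00526 in cKO, so both cKO libraries were higher (two-sided exact permutation p = 0.333). Its log2 fold change was above that of all 20 markers. These markers are of blood vessels and *Flt4* is the lymphatic receptor. *Flt4* itself overlapped between the genotypes, and the marker sum was lower in both cKO libraries. The ratio of *Tek* to *Kdr* was 0.485 and 0.412 in Ctrl and 0.3 and 0.309 in cKO.

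**Figure D4:**
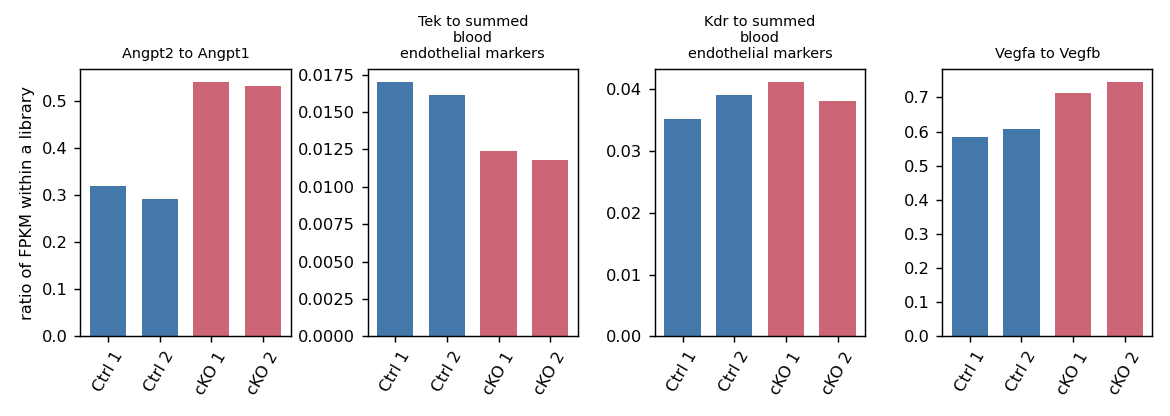
Ratios of FPKM within each library (Ctrl blue, cKO red, each axis starting at 0) of *Angpt2* to *Angpt1*, of *Tek* and of *Kdr* to the summed FPKM of 20 blood endothelial markers, and of *Vegfa* to *Vegfb*. The first and last ratios are higher in both cKO libraries, that of *Tek* is lower, and that of *Kdr* overlaps between genotypes.

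Angiopoietin 1 is known to be made by perivascular and other mesenchymal cells, so markers of these were read beside *Angpt1*. Of 12 pericyte and smooth muscle genes 4 were called lower and 1 higher, around a median log2 fold change of -0.25. *Notch3* and *Cspg4*, pericyte genes, had log2 fold changes of -0.52 and -0.50, and *Acta2*, the smooth muscle actin, 0.24. Without Ctrl replicate 1 these 3 calls were lost (limma adjusted p = 0.0694, 0.0661 and 0.115), and that of *Acta2* was lost without any 1 of the libraries. Of 11 fibroblast progenitor genes 7 were called lower and 0 higher (0 with an unadjusted limma p under 0.05), with a median of -0.63. *Pi16* and *Cd34*, markers of progenitors in the stroma, had the largest falls, at -1.94 and -1.05. *Angpt1* thus fell in libraries in which the fibroblast progenitor list was lower, but this list was not alone. Medians were also negative for the Schwann cell (-1.08), skeletal muscle (-6.73) and adipocyte (-0.34) lists. They were positive for the B cell, T cell and beige and brown lists. The part of any of these cells in the fall of *Angpt1* was not tested.

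Among 19 other ligands, receptors and partners of the VEGF and angiopoietin systems, 14 were testable. In cKO 1 was called higher and 5 lower, and their median log2 fold change was -0.14. *Pgf*, which encodes placental growth factor, a further ligand of VEGFR1, was the gene called higher, from 1.23 and 1.43 FPKM in Ctrl to 2.66 and 2.26 in cKO (log2 fold change 0.57, limma adjusted p = 0.0123). *Figf*, the older symbol of *Vegfd*, a ligand of VEGFR3, fell from 17.89 and 15.69 to 9.65 and 9.86 FPKM (log2 fold change -0.72, limma adjusted p = 0.00125). *Sema3c*, a semaphorin that signals through neuropilins, fell from 12.69 and 11.47 to 5.32 and 5.77 FPKM (log2 fold change -0.998, limma adjusted p = 0.000478). The other 3 called lower, named after their values were seen, were *Tie1*, *Ptprb* and *Plxnd1*. They encode the orphan partner of Tie2, the phosphatase that restrains Tie2 and a semaphorin receptor, respectively. Their log2 fold changes were -0.34, -0.36 and -0.24 (limma adjusted p = 0.0103, 0.00982 and 0.0469). These calls were lost without Ctrl replicate 1, and whichever other library was left out, not all of them were kept. *Tie1* and *Ptprb* are also on the endothelial list. *Nrp2*, the lymphatic neuropilin, had a log2 fold change of 0.21 and was not called (limma adjusted p = 0.0724). The VEGF ligands therefore split, with *Pgf* higher, *Figf* and *Vegfb* lower and *Vegfa* and *Vegfc* not called. The call of *Pgf* was lost without Ctrl replicate 1, Ctrl replicate 2 or cKO replicate 1 (limma adjusted p from 0.0558 to 0.107), and those of *Figf* and *Sema3c* were kept.

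Of 15 genes for signalling downstream of these receptors, 3 were called higher and 3 lower, and their median log2 fold change was -0.04. *Nos3*, the endothelial nitric oxide synthase, fell from 32.96 and 28.51 to 18.32 and 20.14 FPKM (log2 fold change -0.65, limma adjusted p = 0.00233). *Pik3r1*, a regulatory subunit of PI3-kinase that many cell types share, fell from 64.55 and 57.57 to 19.29 and 31.37 FPKM (log2 fold change -1.27, limma adjusted p = 0.00389). *Shb* and *Sh2d2a*, adaptors of VEGFR2, had log2 fold changes of 0.41 and 0.42 and were called higher. *Sh2d2a* rose in libraries in which T cell genes were also higher, and the part of T cells in its rise was not tested. Without Ctrl replicate 1 the calls of *Pik3r1*, *Shb* and *Sh2d2a* were lost, those of *Shb* and *Sh2d2a* also without Ctrl replicate 2, and that of *Sh2d2a* without cKO replicate 2, whereas *Nos3* stayed called.

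Of 14 Notch and tip cell genes, 12 were testable, 1 was called higher and 2 were called lower, and the median log2 fold change was -0.11. *Aplnr*, the apelin receptor of growing vessels, fell from 11.32 and 11.37 to 5.61 and 6.31 FPKM (log2 fold change -0.83, limma adjusted p = 0.00079). *Jag1*, a Notch ligand, fell from 7.32 and 7.71 to 5.55 and 5.98 FPKM (log2 fold change -0.33, limma adjusted p = 0.0207). *Cxcr4*, a chemokine receptor of tip cells and of lymphocytes, rose from 8.54 and 10.41 to 12.47 and 13.68 FPKM (log2 fold change 0.43, limma adjusted p = 0.0194), in libraries in which B cell and T cell genes were also higher. *Dll4*, the tip cell Notch ligand, had a log2 fold change of -0.21 and was not called. *Jag1* lost its call without Ctrl replicate 1 (limma adjusted p = 0.123), Ctrl replicate 2 (limma adjusted p = 0.15) or cKO replicate 1 (limma adjusted p = 0.0843). *Cxcr4* lost it without Ctrl replicate 1 (limma adjusted p = 0.147), cKO replicate 1 (limma adjusted p = 0.0556) or cKO replicate 2 (limma adjusted p = 0.105), and *Aplnr* kept it.

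Of 15 genes of the hypoxia response and of *Vegfa* control, 13 were testable. In cKO 6 were called higher and 1 lower, around a median log2 fold change of 0.04. *Ppargc1a* and *Egln3*, a coactivator of *Vegfa* in oxidative tissue and an oxygen-sensing prolyl hydroxylase, each had a log2 fold change of 0.83. *Ppargc1a* rose from 1.97 and 2.16 to 4.56 and 4.35 FPKM and *Egln3* from 3.62 and 3.84 to 8.4 and 6.52 FPKM. The mRNAs of *Hif1a* and *Epas1*, the oxygen-regulated transcription factors that act on *Vegfa*, were not called, with log2 fold changes of -0.01 and -0.07. Their proteins were not measured in these libraries. *Ndufa4l2*, a hypoxia-induced mitochondrial gene, fell from 13.37 and 12.19 to 9.6 and 8.25 FPKM (log2 fold change -0.48, limma adjusted p = 0.0089). *Esrra*, the known partner receptor of *Ppargc1a*, rose from 41.3 and 37.9 to 50.65 and 47.4 FPKM (log2 fold change 0.30, limma adjusted p = 0.0169). No fit with a library left out is given for *Esrra*. The part of *Ppargc1a* and *Esrra* in the level of *Vegfa* was not tested. *Egln3* lost its call without Ctrl replicate 1 (limma adjusted p = 0.0632), and *Ndufa4l2* without Ctrl replicate 1 (limma adjusted p = 0.117) or 2 (limma adjusted p = 0.0548).

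Of 10 antiangiogenic factors, 8 were testable, 2 were called higher and 4 lower, and the median log2 fold change was -0.30. *Cxcl10*, an interferon-induced chemokine, rose from 3.49 and 2.95 to 9.85 and 8.8 FPKM (log2 fold change 1.29, limma adjusted p = 0.000389). *Thbs1*, thrombospondin 1, rose from 1.31 and 1.56 to 4.16 and 3.51 FPKM (log2 fold change 0.99, limma adjusted p = 0.00152). *Serpinf1*, which encodes pigment epithelium-derived factor, fell from 182.49 and 159.84 to 90.56 and 87.37 FPKM (log2 fold change -0.93, limma adjusted p = 0.000447). *Timp3*, a matrix protease inhibitor that blocks VEGFR2, fell from 67.35 and 66.21 to 42.17 and 46.55 FPKM (log2 fold change -0.58, limma adjusted p = 0.00133). All 4 kept their calls when each library was left out in turn.

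**Figure D5:**
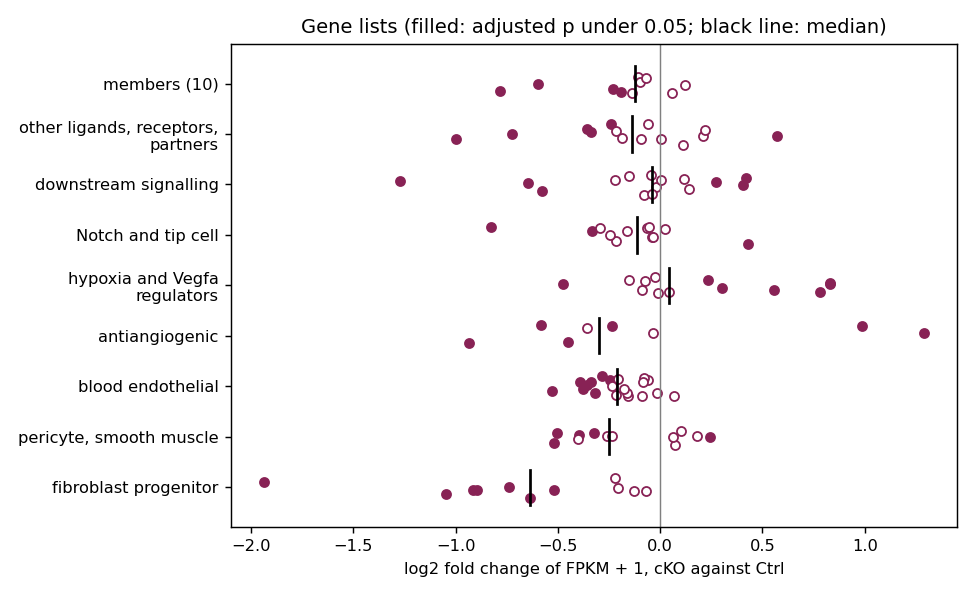
Log2 fold change of FPKM + 1, cKO against Ctrl, of every tested gene in 9 lists, 1 point per gene, filled for an adjusted p under 0.05, with a black line at the list's median and small vertical shifts only to separate points. The members' median is -0.12, the antiangiogenic list holds calls on both sides of 0, and the fibroblast progenitor list has the lowest median, -0.63.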

How the data were processed

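Poly-A RNA of ingWAT was read by the authors as 50-base single-end reads on a BGISEQ-500. The submitters' processing notes name HISAT2 2.0.4, RSEM 1.2.12 and the build mm10, and the table lists RefSeq transcript IDs. The authors deposited FPKM per gene and library, to the hundredth, with no scaling between libraries stated. No per-sample column was left unused. Samples were grouped by their titles. Genes were compared with limma 3.58.1 (R 4.3.3, eBayes with a variance trend). In data simulated for this comparison, 200 of 12658 genes were changed. There limma called 98 of 100 genes changed by 1 and 64 of 100 changed by 0.5 on the log2 scale, with 4 false calls. In the real data 25.8% of genes were called, and shifts in cell types were not simulated, so these rates need not hold there. Depth was estimated from 319 single-transcript genes of at most 400 bases, as the read total that made FPKM times length (less 36 bases) whole. Between 84.5% and 90.8% of values up to 6 reads came out whole within 0.1. Whole reads could not be recovered for longer genes, so no count test was run, and read numbers are estimates that carry counting error only. Coordinates and exons are those of GENCODE M21 (GRCm38, the sequence of mm10), and promoters those of RefSeq (GRCm38.p6). Steps outside R used Python 3.11.15, numpy 2.4.6, pandas 2.3.3 and matplotlib 3.10.9.

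The members, gene lists and tests were chosen with earlier results of these data known. In each pathway list, and in the blood endothelial, lymphatic, pericyte and fibroblast lists, the genes named are at most the 2 largest rises and the 2 largest falls among called genes whose genotypes do not overlap. The other cell type lists are given by counts, apart from *Cd163*, *Mrc1*, *Cd68* and the adipocyte genes named above. *Vegfa* and *Kdr* were given their 3 nearest patterns, and other genes are marked or are members, defining markers or known partners. The alternatives changed the pseudocount to 0.1, dropped the filter or raised it to 5 FPKM, or used median-of-ratios scaling, quantile normalization, no variance trend, the replicate number as a block, and each library left out.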

Additional observations from a re-analysis of the deposited data

How the results depend on the processing

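*Angpt1* and *Tek* kept their direction and call under all 11 alternatives, and *Vegfa*, *Vegfc*, *Kdr*, *Flt1*, *Flt4* and *Angpt2* were called under none. The cause of the changes below was not tested. A changed filter alters both the number of genes adjusted over and the genes that set the variance trend, so these cannot be told apart. With median-of-ratios scaling and without a variance trend 2 members were called lower in place of 4, since *Vegfb* and *Nrp1* were lost, and 2 were called without any 1 of the libraries. With no filter 3 were called, since *Vegfb* was lost (limma adjusted p = 0.0829). *Angpt2* turned to 0.0060 with quantile normalization, far from a call on either side. With *Flt4*, *Angpt2* and *Vegfc* at a mean under 5 FPKM, 7 members could be tested under that filter.

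With no filter, 667 genes were called higher and 1095 lower over the 19030 genes, against 1519 and 1750. When 1 library was left out the counts ranged from 303 to 1072 higher and from 484 to 1379 lower. With no filter, the list of other ligands, receptors and partners had 0 called higher and a median of -0.057, the downstream list 1 called higher, the Notch list 0 higher, the hypoxia list 0 lower, the antiangiogenic list a median of -0.15 and the endothelial list 4 lower. With a mean of at least 5 FPKM, the list of other ligands, receptors and partners had 0 called higher and a median of -0.24, and the antiangiogenic list 1 called higher. With 1 library left out, the calls ranged from 0 to 1 higher and 2 to 3 lower for other ligands, receptors and partners, from 0 to 2 higher for downstream signalling, from 0 to 1 higher and 1 to 2 lower for the Notch list, from 2 to 5 higher and 0 to 1 lower for the hypoxia list, from 2 to 3 lower for the antiangiogenic list and from 0 to 6 lower for the endothelial list. In the same settings the median ranged from -0.21 to -0.062 for the Notch list and from -0.25 to -0.13 for the endothelial list. A fit without 1 library rests on 3 libraries, and the lone library of a genotype is assumed to vary like the others.

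The replicate numbers are shared by both genotypes, but no label says what they pair, and the deviations of same-numbered libraries had a correlation of 0.015 over 12658 genes. With the replicate number as a block, 3 members were called lower, because *Nrp1* had an adjusted p of 0.052 by limma, and 26.7% of all genes were called, against 25.8% without the block.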
